A study of Mus musculus with 6 samples.

Results

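Fatty acid oxidation and ketone body metabolism were followed through 34 genes in white adipose tissue of mice given ginsenoside Rb1, against mice given saline. The genes were chosen by name, for the enzymes, carriers and receptors of these pathways, with earlier results of these data known. All 34 were matched by symbol to the Ensembl identifiers of the deposited table, out of 22040 identifiers in all. Total RNA was sequenced in 6 samples. In the Rb1 group, 3 samples came from mice given intraperitoneal Rb1, a steroid glycoside of ginseng, at 14 mg per kg per day. In the control group (CTR), 3 samples came from mice given intraperitoneal saline. The labels name no strain, sex, age, diet, fat depot, treatment length, allele or transgene. They also do not tie each sample to a mouse of its own, so every p-value speaks of sample-to-sample spread, part of which may be technical.

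Mitochondria burn long-chain fatty acids after the carnitine shuttle has moved them across the inner membrane. Each turn of beta-oxidation then removes an acetyl-CoA through a dehydrogenase, a hydratase, a second dehydrogenase and a thiolase, and the electrons pass through electron transfer flavoprotein to the respiratory chain. Peroxisomes run a parallel route for very long-chain and branched fatty acids, and ketone bodies carry acetyl units between tissues. White adipocytes mainly store and release fatty acids, and peroxisome proliferator-activated receptors (PPARs) are known regulators of many genes of these pathways.

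The libraries held 15440339 to 24501446 assigned reads. The tissue label matched its markers: 12 genes of mature adipocytes summed to between 9874 and 10659 FPKM (fragments per kilobase of gene, scaled to library size) in Rb1 samples and between 8353 and 9939 FPKM in CTR samples. CTR replicate 2 stood apart. Its 16 skeletal muscle markers summed to 10833 FPKM, against 65.0, 17.6 and 43.9 FPKM in Rb1 replicates 1 to 3 and 165 and 164 FPKM in CTR replicates 1 and 3. None of those 16 markers was at 0 in every sample, and 14 were highest in CTR replicate 2. Since muscle burns fatty acids with some of the same enzymes, results are given with and without that library. Macrophage markers (12 genes) summed to between 631 and 891 FPKM in Rb1 samples and between 998 and 1302 FPKM in CTR samples, and in bulk tissue fewer cells of a type and less RNA per cell cannot be told apart. The part of these marker differences in the results was not tested.

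All 34 genes were read, and all 34 passed the filter on low counts. Of these, 13 share exon positions with another annotated gene, and since the handling of strand is not known, reads from the overlapping stretch cannot be told apart from those of the neighbour. Their levels spanned a wide range. By the deposited FPKM the highest mean over the 6 samples was that of Abcd2, at 173 FPKM. Acadl followed at 164 FPKM, and the sample ranges of these 2 genes overlapped. Hsd17b4 averaged 129 FPKM, Etfa 92.0 FPKM and Eci1 82.5 FPKM. At the low end were Cpt1b at 3.93 FPKM, Hadhb at 2.34 FPKM, Ppara at 1.06 FPKM and Bdh1 at 0.0985 FPKM. This order depends on the length given to each gene. Dividing each deposited count by its FPKM gave lengths that were a median of 1.66 times the longest annotated transcript, and more than 1.5 times it in 19 of 34 genes. Rescaled to the longest transcript, the same unit put Acadm first at 210, then Hsd17b4 at 188, Acadl at 175 and Abcd2 at 173, with Bdh1 still lowest at 0.198. The fold changes between groups are within a gene and do not depend on this length.

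**Figure D1:**
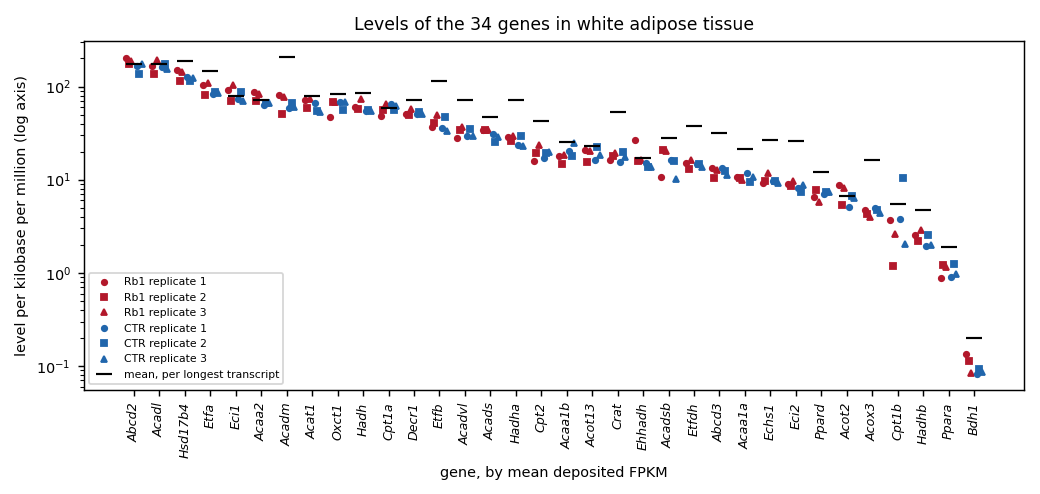
Level of each of the 34 genes on a logarithmic axis, ordered by mean deposited FPKM, with 1 point per sample (red Rb1, blue CTR, the shape giving the replicate). Black dashes give the mean rescaled to the longest annotated transcript; the order starts with Abcd2 at 173 FPKM and ends with Bdh1 at 0.0985 FPKM.

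None of the 34 genes passed the test between Rb1 and CTR. The lowest adjusted p-value among them was 0.309 (edgeR quasi-likelihood test, Benjamini-Hochberg adjustment over all 14093 genes tested), and DESeq2 also called 0 of 34. Over all genes edgeR called 0.0071% higher and 0% lower in Rb1, and DESeq2 called 0.589% higher and 2.18% lower. At an unadjusted edgeR p under 0.05, 3 of the 34 genes were higher in Rb1 (Acads, Acaa2 and Ehhadh) and 0 were lower, where 4.01% of all genes were higher and 7.54% lower. The normalized counts of all Rb1 samples lay above all CTR samples in 5 of 34 genes, against 7.75% of all genes tested. They lay below all CTR samples in 1 gene, Acox3, against 9.75% of all genes tested. The median log2 fold change of Rb1 over CTR was 0.16 for the 34 genes and 0.01 for all genes tested. It was above 0 in 28 of 34 genes (82.4%) and in 51.3% of all genes tested. Genes of one pathway share samples and vary together, so these shares describe the list and carry no test. Beside them, the median log2 fold change was 0.29 for the 12 mature adipocyte markers, of which 9 were above 0, and -0.75 for the 12 macrophage markers, of which 1 was. It was 0.27 for 7 endothelium markers, all above 0, and 0.20 for 7 progenitor and stroma markers, of which 6 were above 0.

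Leaving out CTR replicate 2 left the median and the number of calls much the same, but changed which genes stood out. The median was 0.18, against 0.01 for all genes then tested, and 27 of 34 fold changes were above 0, against 52% of all genes. Again 0 genes were called by edgeR (0.00703% of all genes higher, 0% lower) or by DESeq2 (0.246% higher, 1.11% lower). An unadjusted p under 0.05 was then reached by Hadha, Hadhb and Acaa2, all 3 higher in Rb1 (2.64% of all genes higher, 5.68% lower). Groups that did not overlap were found for 9 genes higher (11.6% of all genes) and 1 lower (13.8%).

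**Figure D2:**
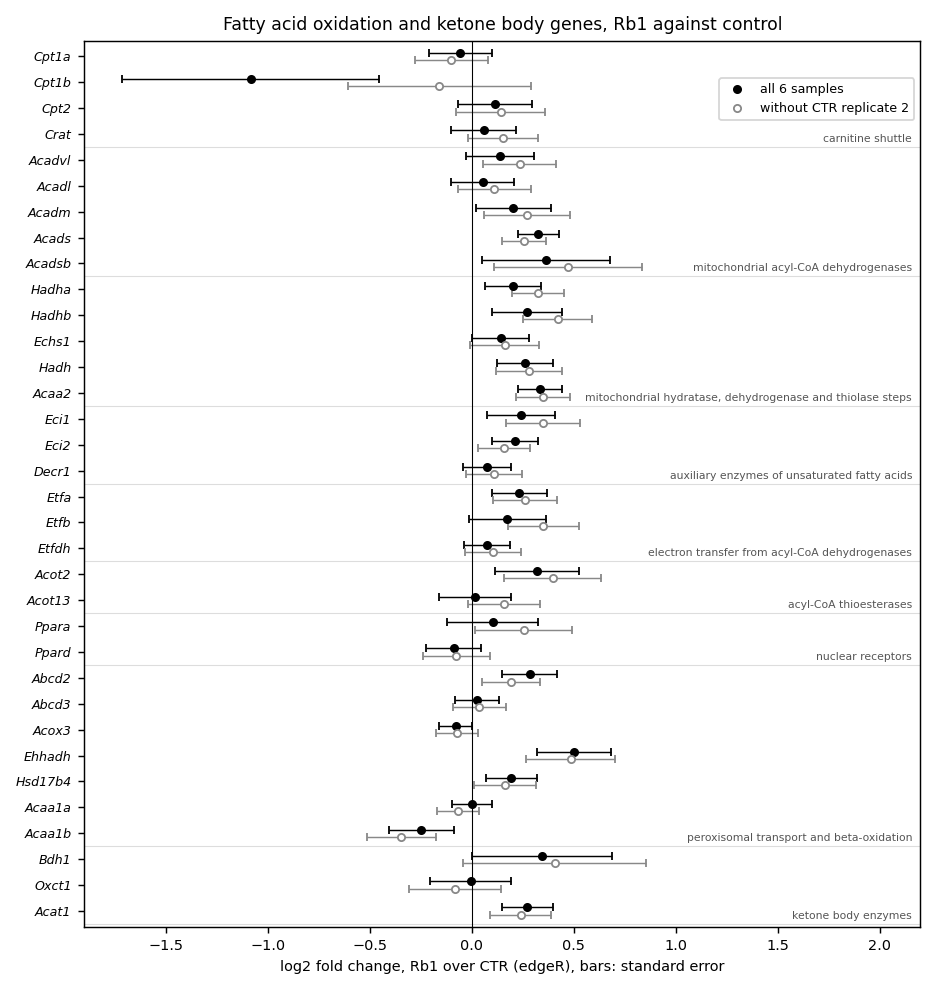
Log2 fold change of Rb1 over CTR for the 34 genes, grouped by role, with bars for the standard error; filled points use all 6 samples and open points leave out CTR replicate 2. Most points lie just right of 0 (median 0.16), and Cpt1b moves most between the fits, at -1.08 with all samples and -0.16 without CTR replicate 2.

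One Rb1 library carried much of the small upward shift. In 22 of 34 genes the highest of the 6 normalized counts was that of Rb1 replicate 3, which was highest for 14.1% of all genes tested. The 34 genes took 0.617%, 0.565% and 0.666% of all counts in Rb1 replicates 1 to 3, against 0.570%, 0.565% and 0.558% in CTR replicates 1 to 3. By this share, which is not normalized, Rb1 replicate 2 lay within the CTR range. In normalized counts, the median log2 ratio to each gene's own mean was -0.0069, 0.0071 and 0.21 in Rb1 replicates 1 to 3. It was -0.15, -0.00055 and -0.082 in CTR replicates 1 to 3. Without Rb1 replicate 3 the median log2 fold change was 0.03. Among the controls, CTR replicate 2 was the highest for 19 of 34 genes, against 32.7% of all genes tested. Brown and beige fat markers (12 genes) summed to 71.7 FPKM in Rb1 replicate 3, against 39.2 and 41.4 FPKM in Rb1 replicates 1 and 2. The same sum was 49.1, 92.6 and 37.5 FPKM in CTR replicates 1 to 3. Its members differed: Cox8b had 24.6 FPKM in Rb1 replicate 3, against 5.08 and 6.48 FPKM in Rb1 replicates 1 and 2. In the same order, Ucp1 had 0.474 FPKM against 1.87 and 0 FPKM, and Elovl3 0.0546 FPKM against 0.629 and 0.130 FPKM. In CTR replicate 2, the library with the muscle transcripts, Cox8b had 36.4 FPKM and Cox7a1 8.92 FPKM. The part of these markers in the pattern was not tested.

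**Figure D3:**
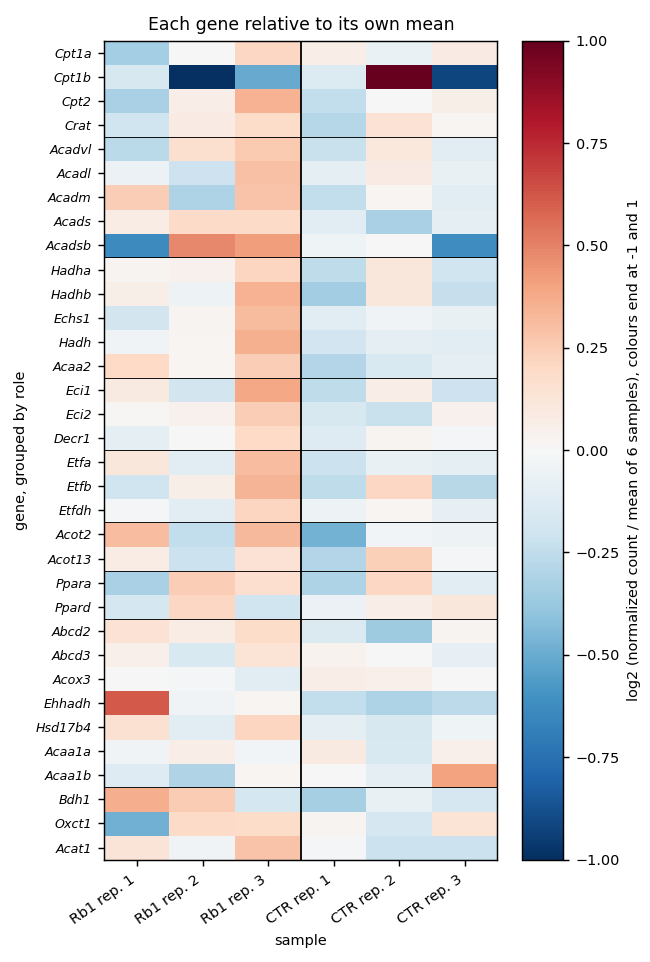
Normalized count of each gene in each sample relative to the mean of the 6 samples (log2 scale, red above and blue below, colours ending at -1 and 1), with the Rb1 samples left of the line and the CTR samples right of it. The column of Rb1 replicate 3 is mostly red, being the highest sample for 22 of 34 genes, and Cpt1b is darkest red in CTR replicate 2.

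The carnitine shuttle had a median log2 fold change of 0.00 over its 4 genes, and 0.02 without CTR replicate 2. Cpt1a encodes the carnitine palmitoyltransferase 1 of liver and most other tissues, the step that malonyl-CoA inhibits, and lies at chr19:3322334-3385733 on the plus strand (GRCm38, as for all positions here). It had 48.6, 56.1 and 65.1 FPKM in Rb1 samples and 64.9, 56.4 and 61.3 FPKM in CTR samples. All CTR values lay inside the Rb1 range, and the log2 fold change was -0.06 (SE 0.15, adjusted p = 0.929, edgeR). Cpt1b (chr15:89416405-89425863, minus strand), the muscle and brown fat form, had 3.65, 1.18 and 2.64 FPKM in Rb1 samples and 3.74, 10.3 and 2.03 FPKM in CTR samples. The single high value was that of CTR replicate 2, the library with the muscle transcripts. Its log2 fold change was -1.08 (SE 0.63, adjusted p = 0.578, edgeR) with all samples and -0.16 (adjusted p = 0.966) without that library. The 16 muscle markers were lower in Rb1 in both fits, with median log2 fold changes of -6.34 and, without that library, -2.24. Of the 50-base words of the longest coding Cpt1b transcript, 93.0% also occur in the overlapping predicted gene Gm44502, so how its reads were assigned is uncertain.

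Shares across both forms depend on the length given to each gene. Cpt1b made up 6.99%, 2.06% and 3.89% of the summed Cpt1a and Cpt1b FPKM in Rb1 samples, a mean of 4.31% ± 2.49 (SD, n = 3). In CTR samples it made up 5.45%, 15.5% and 3.20%, a mean of 8.05% ± 6.54 (SD, n = 3). The groups did not differ beyond their spread (two-sided exact permutation test, p = 0.6, the smallest p this design allows being 0.1). Without CTR replicate 2 the p was 1, with 0.2 the smallest possible. Cpt2, the inner-membrane enzyme that returns acyl groups to CoA, had 16.0, 19.3 and 23.5 FPKM in Rb1 samples and 17.1, 19.3 and 19.7 FPKM in CTR samples. Rb1 held both its lowest and its highest sample, and the log2 fold change was 0.11 (SE 0.18, adjusted p = 0.865, edgeR). Crat, which transfers short acyl groups to carnitine, had a log2 fold change of 0.06.

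**Figure D4:**
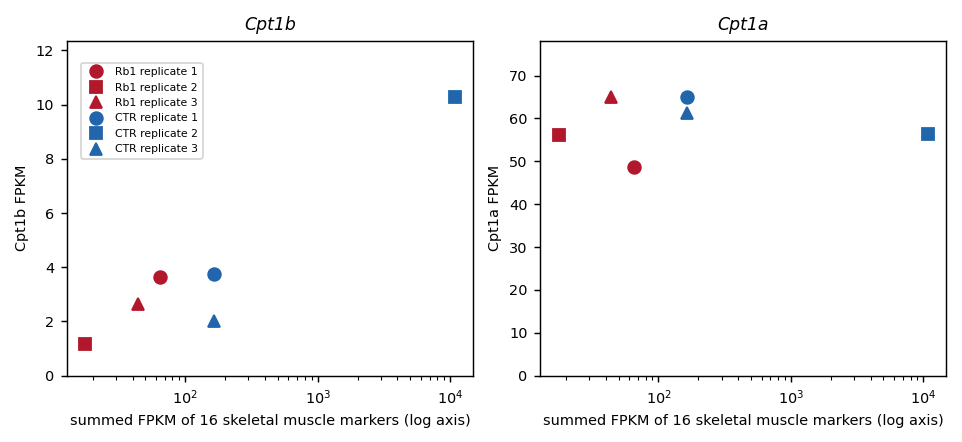
FPKM of Cpt1b (left) and Cpt1a (right) in each sample against the summed FPKM of 16 skeletal muscle markers (logarithmic axis), red for Rb1 and blue for CTR. CTR replicate 2, at 10833 FPKM of muscle markers, has the highest Cpt1b (10.3 FPKM), while its Cpt1a (56.4 FPKM) lies within the range of the other samples.

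The 5 mitochondrial acyl-CoA dehydrogenases, which open each round of oxidation and differ in chain length, had a median log2 fold change of 0.20, and 0.26 without CTR replicate 2. Acads (chr5:115110299-115119346, minus strand), the short-chain enzyme, had 34.4, 34.3 and 34.3 FPKM in Rb1 samples and 30.6, 25.2 and 28.9 FPKM in CTR samples. Every Rb1 sample was above every CTR sample, with means of 34.3 ± 0.0747 FPKM in Rb1 and 28.2 ± 2.78 FPKM in CTR (SD, n = 3 each). The log2 fold change was 0.33 (SE 0.10) with an adjusted p of 0.309 (edgeR), and 0.26 without CTR replicate 2, the lowest sample. DESeq2 gave it an adjusted p of 0.15. Acadl, the long-chain enzyme, had 165, 136 and 193 FPKM in Rb1 samples and 162, 175 and 154 FPKM in CTR samples. Its CTR values lay inside the Rb1 range, and the log2 fold change was 0.05 (SE 0.15, adjusted p = 0.932, edgeR).

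Acadsb, which acts on the branched short-chain acyl-CoA of isoleucine breakdown, had 10.6, 21.0 and 20.1 FPKM in Rb1 samples and 16.1, 15.9 and 10.1 FPKM in CTR samples. One low sample stood in each group, and the log2 fold change of 0.36 had a standard error of 0.31 (adjusted p = 0.723, edgeR). Acadm, the medium-chain enzyme, had 81.0, 50.4 and 76.6 FPKM in Rb1 samples and 58.2, 66.8 and 59.9 FPKM in CTR samples. Rb1 replicate 2 was below all controls, the other Rb1 samples above them, and the log2 fold change was 0.20 (SE 0.18, adjusted p = 0.736, edgeR). Acadvl, the very long-chain enzyme, had a log2 fold change of 0.14, and 24.0% of its 50-base words occur in the neighbouring Dvl2.

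The hydratase, dehydrogenase and thiolase steps had a median log2 fold change of 0.26 over 5 genes, and 0.32 without CTR replicate 2. All 5 were positive in both fits. Acaa2, the mitochondrial thiolase, had 87.1, 70.2 and 82.7 FPKM in Rb1 samples and 62.7, 65.8 and 66.8 FPKM in CTR samples. Every Rb1 sample was above every CTR sample, with means of 80.0 ± 8.75 FPKM in Rb1 and 65.1 ± 2.13 FPKM in CTR (SD, n = 3 each). Its log2 fold change was 0.34 (SE 0.11, adjusted p = 0.312, edgeR), 0.35 without CTR replicate 2, and between 0.28 and 0.40 with each sample left out in turn. Hadh, the dehydrogenase of medium- and short-chain hydroxyacyl-CoA, had 60.8, 58.0 and 73.3 FPKM in Rb1 samples and 55.1, 56.0 and 54.2 FPKM in CTR samples. Its groups did not overlap either, but Rb1 replicate 3 stood well above the rest. The log2 fold change was 0.26 (SE 0.14, adjusted p = 0.524, edgeR) and 0.13 without Rb1 replicate 3. Echs1, the short-chain enoyl-CoA hydratase, had a log2 fold change of 0.14.

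Hadha and Hadhb encode the alpha and beta subunits of the mitochondrial trifunctional protein, which runs the last steps for long chains. They lie head to head on chromosome 5, Hadha on the minus strand and Hadhb on the plus strand. The stretch between the annotated genes, at chr5:30155163-30155247 of GRCm38.p6, is shown because the 2 genes share it as upstream sequence. It is taken from the RefSeq window of Hadhb and read on the plus strand, and capitals mark bases that also lie in the RefSeq window of Hadha, 250 bases before to 50 after its start.
Hadhb: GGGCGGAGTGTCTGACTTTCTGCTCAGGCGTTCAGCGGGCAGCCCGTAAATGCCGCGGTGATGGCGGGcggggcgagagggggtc
Hadha had 28.6, 26.3 and 29.8 FPKM in Rb1 samples and 23.7, 29.1 and 23.0 FPKM in CTR samples. Hadhb had 2.56, 2.17 and 2.87 FPKM in Rb1 samples and 1.95, 2.55 and 1.97 FPKM in CTR samples. In both genes CTR replicate 2 was the highest control and overlapped the Rb1 range, while the other controls lay below all Rb1 samples. The log2 fold change of Hadha was 0.20 with all samples (SE 0.14, adjusted p = 0.634, edgeR) and 0.32 without CTR replicate 2 (adjusted p = 0.574). That of Hadhb was 0.27 (SE 0.17, adjusted p = 0.608) and 0.42 without that library (adjusted p = 0.583). The FPKM of Hadhb stayed between 0.0822 and 0.0966 times that of Hadha in Rb1 samples and between 0.0824 and 0.0878 times in CTR samples. Hadhb shares 62.4% of its 50-base words with the predicted genes Gm13910 and Gm9108, so its level relative to Hadha may be set by how such reads were assigned, which was not tested.

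**Figure D5:**
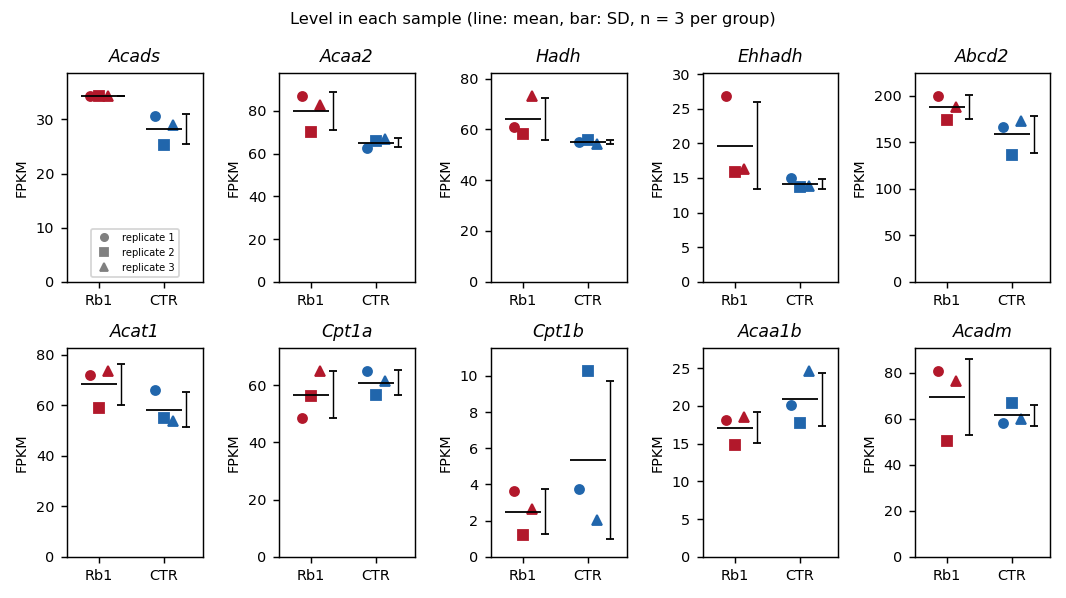
FPKM in each sample for 10 of the 34 genes, with Rb1 left of CTR, a line at the mean and a bar for the SD (n = 3 each). Rb1 and CTR points do not overlap for Acads, Acaa2, Hadh, Ehhadh and Abcd2, and the Ehhadh mean rests on a high Rb1 replicate 1.

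The auxiliary enzymes that let unsaturated fatty acids enter the cycle had a median log2 fold change of 0.21 over 3 genes. Eci1, an enoyl-CoA isomerase, had 91.7, 69.5 and 104 FPKM in Rb1 samples and 73.0, 86.7 and 70.3 FPKM in CTR samples. The groups overlapped because Rb1 replicate 2 was low and CTR replicate 2 high, and the log2 fold change was 0.24 (SE 0.17, adjusted p = 0.639, edgeR). Eci2, the second isomerase, had 9.07, 8.47 and 9.77 FPKM in Rb1 samples and 8.15, 7.41 and 8.72 FPKM in CTR samples. Only 1 CTR sample reached into the Rb1 range, and the log2 fold change was 0.21 (SE 0.11, adjusted p = 0.532, edgeR). Decr1, the dienoyl-CoA reductase, had a log2 fold change of 0.08.

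Electron transfer flavoprotein, whose subunits are Etfa and Etfb, and its dehydrogenase Etfdh had a median log2 fold change of 0.17, and 0.26 without CTR replicate 2. Etfa had 104, 81.3 and 109 FPKM in Rb1 samples and 83.9, 88.1 and 85.3 FPKM in CTR samples. Rb1 replicate 2 was the lowest of the 6 by FPKM, and CTR replicate 1 in normalized counts. The log2 fold change was 0.23 (SE 0.13, adjusted p = 0.568, edgeR). Etfb had 37.0, 40.5 and 49.4 FPKM in Rb1 samples and 36.0, 47.2 and 33.0 FPKM in CTR samples. CTR replicate 2 was above 2 of the 3 Rb1 samples, so the log2 fold change was 0.17 with it (SE 0.19, adjusted p = 0.791, edgeR) and 0.35 without it. Etfb shares 67.3% of its 50-base words with the overlapping predicted gene Gm45233. Etfdh had a log2 fold change of 0.07.

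The acyl-CoA thioesterases, which release free fatty acids from CoA, differed from each other. Mitochondrial Acot2 had 8.67, 5.40 and 8.05 FPKM in Rb1 samples and 5.12, 6.62 and 6.39 FPKM in CTR samples, with Rb1 replicate 2 inside the CTR range. Its log2 fold change was 0.32 (SE 0.21, adjusted p = 0.618, edgeR), and 27.7% of its 50-base words occur in Acot1 or Acot4. Acot13 had 20.8, 15.6 and 20.1 FPKM in Rb1 samples and 16.3, 22.4 and 18.5 FPKM in CTR samples. The groups overlapped throughout, and the log2 fold change of 0.02 (SE 0.18, adjusted p = 0.986, edgeR) was -0.02 when libraries were scaled by their totals.

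The nuclear receptors Ppara and Ppard, which bind fatty acids and drive many genes of this list in liver and muscle, differed little. Ppara had 0.890, 1.21 and 1.15 FPKM in Rb1 samples and 0.907, 1.24 and 0.974 FPKM in CTR samples. Its groups covered nearly the same range, with a log2 fold change of 0.10 (SE 0.22, adjusted p = 0.906, edgeR). Ppard had 6.46, 7.69 and 5.80 FPKM in Rb1 samples and 7.07, 7.35 and 7.41 FPKM in CTR samples. The CTR values lay inside the Rb1 range, with a log2 fold change of -0.09 (SE 0.14, adjusted p = 0.856, edgeR).

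PPARs bind with a retinoid X receptor to direct repeats of a half-site, and this was searched in the RefSeq promoter windows of GRCm38.p6, which cover 250 bases before to 50 after a gene's start. A window was matched for 26 of the 34 genes. Crat, Acaa2, Abcd2, Acot13, Cpt1b, Hsd17b4, Decr1 and Acat1 had none. The full repeat AGGTCANAGGTCA, on either strand, was in 0 of the 26 windows and in 0.0481% of 27025 genes. The single half-site AGGTCA, which is also part of that repeat, was in 4 of 26 windows (15.4%) and in 18.1% of all genes. The extended half-site TNAAGGTCA, which contains AGGTCA, was in 0 of 26 and in 1.43% of all genes. The full repeat and the extended half-site are so rare over all genes that 0 of 26 windows says little about these genes. The share of these genes with the single half-site was near the background.

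The 4 half-sites are shown with up to 20 bases on each side, on the strand of the gene, so that each match can be read in its sequence. Capitals mark AGGTCA or, where it lies on the other strand, TGACCT. The lines are Acadm at chr3:153944867-153944893 (minus strand, at the far end of its window), Acadvl at chr11:70015490-70015535 (minus strand), Cpt1a at chr19:3323187-3323232 (plus strand) and Echs1 at chr7:140116479-140116524 (minus strand).
Acadm: gTGACCTtcgggctccggtgacactgg
Acadvl: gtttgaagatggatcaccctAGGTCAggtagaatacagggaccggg
Cpt1a: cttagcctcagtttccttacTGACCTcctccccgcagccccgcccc
Echs1: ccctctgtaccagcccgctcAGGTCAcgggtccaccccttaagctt
The log2 fold changes of these genes were 0.20 for Acadm, 0.14 for Acadvl, -0.06 for Cpt1a and 0.14 for Echs1, none past the test.

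Peroxisomal transport and beta-oxidation had a median log2 fold change of 0.03 over 7 genes, and 0.04 without CTR replicate 2, but its members spread widely. Ehhadh (chr16:21761287-21787807, minus strand), the peroxisomal bifunctional enzyme, had 26.9, 15.8 and 16.3 FPKM in Rb1 samples and 15.0, 13.7 and 13.8 FPKM in CTR samples. The groups did not overlap, but Rb1 replicate 1 stood far above all other samples. Its log2 fold change of 0.50 (SE 0.18, adjusted p = 0.369, edgeR) was the highest of the 34 and was 0.27 without Rb1 replicate 1. Of 12 liver markers Cps1 was at 0 in every sample. The list summed to 63.0, 78.8 and 56.7 FPKM in Rb1 replicates 1 to 3 and 14.5, 31.1 and 42.7 FPKM in CTR replicates 1 to 3. Nearly all of that sum was Cyp2e1 and Alb, the other 10 markers staying at or below 0.949 FPKM. Their part in the value of Ehhadh, which liver also expresses, was not tested. Abcd2 (chr15:91145871-91191799, minus strand), a peroxisomal transporter of very long-chain acyl-CoA, had 200, 174 and 188 FPKM in Rb1 samples and 166, 136 and 173 FPKM in CTR samples. Its lowest Rb1 sample was just above its highest CTR sample, with means of 187 ± 12.5 FPKM in Rb1 and 158 ± 19.5 FPKM in CTR (SD, n = 3 each). The log2 fold change was 0.28 (SE 0.13, adjusted p = 0.483, edgeR) and 0.19 without CTR replicate 2.

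Hsd17b4, the other bifunctional enzyme, had 150, 114 and 143 FPKM in Rb1 samples and 127, 116 and 123 FPKM in CTR samples. Rb1 replicate 2 was again the lowest sample by FPKM, and CTR replicate 2 in normalized counts. The log2 fold change was 0.19 (SE 0.13, adjusted p = 0.620, edgeR). The peroxisomal thiolases Acaa1a and Acaa1b share 583 of their 50-base words, out of 1713 in Acaa1a and 1640 in Acaa1b. Reads may thus have been split between them. Acaa1a had 10.7, 10.5 and 9.84 FPKM in Rb1 samples and 11.8, 9.47 and 10.7 FPKM in CTR samples. Its Rb1 values lay inside the CTR range, with a log2 fold change of 0.00 (SE 0.10, adjusted p = 0.996, edgeR) that was -0.07 without CTR replicate 2. Acaa1b had 18.1, 14.8 and 18.5 FPKM in Rb1 samples and 20.1, 17.8 and 24.7 FPKM in CTR samples. CTR replicate 3 was its highest sample, and the log2 fold change was -0.25 (SE 0.16, adjusted p = 0.620, edgeR). With the counts of both thiolases summed, the log2 fold change was -0.09. Abcd3, a transporter of branched and long-chain acyl-CoA, had 0.03 and the branched-chain oxidase Acox3 had -0.08 as log2 fold change.

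The ketone body enzymes had a median log2 fold change of 0.27 over 3 genes, and 0.24 without CTR replicate 2. Acat1 (chr9:53580522-53610382, minus strand), the mitochondrial acetoacetyl-CoA thiolase of ketone body synthesis and use, had 72.1, 59.0 and 73.8 FPKM in Rb1 samples and 66.2, 54.9 and 53.7 FPKM in CTR samples. Rb1 replicate 2 lay inside the CTR range, and the log2 fold change was 0.27 (SE 0.13, adjusted p = 0.475, edgeR). Bdh1, the hydroxybutyrate dehydrogenase, had 0.133, 0.112 and 0.0837 FPKM in Rb1 samples and 0.0825, 0.0939 and 0.0860 FPKM in CTR samples. At so low a level its log2 fold change of 0.34 had a standard error as large (SE 0.34, adjusted p = 0.766, edgeR). Oxct1, which commits tissues outside the liver to ketone body use, had 46.9, 68.4 and 68.1 FPKM in Rb1 samples and 67.4, 56.0 and 67.6 FPKM in CTR samples. Rb1 replicate 1 was the lowest of the 6, and the log2 fold change was -0.01 (SE 0.20, adjusted p = 0.996, edgeR).

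Further genes of the same pathways, 119 in 10 lists, gave 114 tested genes. edgeR called 0 of 114, and 77 had log2 fold changes above 0 (51.3% of all genes), with a median of 0.13. At an unadjusted p under 0.05, 18 were higher and 2 lower (4.01% and 7.54% of all genes). Without CTR replicate 2, 8 were higher and 3 lower at that threshold (2.64% and 5.68% of all genes). DESeq2 called 2 higher, among them Acsm5, and 1 lower, Ucp2, with all samples (0.589% and 2.18% of all genes). Without CTR replicate 2 it called neither, with adjusted p-values of 0.222 for Acsm5 and 0.110 for Ucp2. List medians were 0.26 for 17 other mitochondrial oxidation genes, 0.33 for 6 genes of propionyl-CoA handling, 0.29 for 8 other ketone genes and 0.15 for 12 other peroxisomal enzymes. They were 0.17 for 4 other carnitine genes, 0.17 for 10 genes of malonyl-CoA and AMP kinase, 0.06 for 16 peroxisome assembly genes and 0.06 for 16 receptor partners and coactivators. Acyl-CoA synthetases (13 genes) had a median of -0.07, or 0.03 without CTR replicate 2, and other PPAR targets (12 genes) of -0.12, or 0.05 without that library.

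Acacb, the mitochondrial acetyl-CoA carboxylase whose malonyl-CoA inhibits carnitine palmitoyltransferase 1, had 26.5, 15.2 and 14.8 FPKM in Rb1 samples and 8.24, 12.3 and 11.7 FPKM in CTR samples. The groups did not overlap, with a log2 fold change of 0.83 (adjusted p = 0.309, edgeR) that was 0.56 without Rb1 replicate 1. Ucp2, a mitochondrial carrier among the PPAR targets, had 15.3, 13.3 and 13.4 FPKM in Rb1 samples and 20.1, 20.2 and 17.4 FPKM in CTR samples. All Rb1 samples were lower, with a log2 fold change of -0.41 that passed in DESeq2 (adjusted p = 0.00823) and not in edgeR (adjusted p = 0.217). Acsm5, a medium-chain acyl-CoA synthetase, had a log2 fold change of 0.78 (adjusted p = 0.234 in edgeR and 0.0287 in DESeq2).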

How the data were processed

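Raw read counts per gene for 6 white adipose samples were deposited, beside FPKM values that the authors computed from them. Per the submitters' processing notes, CASAVA 1.8, TopHat2 2.0.6 and mm10 were used. The read counter, the gene models it used and its handling of strand are not named there, nor in the labels. Dividing counts by FPKM and library total gave 1 length per gene in all samples (spread at most 0.00984% over 13169 genes). The 34 genes and the other lists were chosen with earlier results of these data known. Symbols came from the reference annotation for 22010 of 22040 identifiers. Genes with low counts were removed (edgeR filter, minimum 10, total 15), counts were scaled by TMM, and all 14093 genes left were tested with edgeR 4.0.16 in R 4.3.3, quasi-likelihood, Benjamini-Hochberg threshold 0.05. DESeq2 1.42.0, limma 3.58.1 voom with quality weights, library totals, no filter, a replicate block and each sample left out were alternatives. Permutation tests used scipy 1.17.1. The genes given in full were, within each role, the 2 of lowest edgeR p and the one of highest mean FPKM, with Cpt1a, Cpt1b, Acaa1a, Acaa1b, Ppara, Ppard and any whose sign turned without CTR replicate 2. Acadm, Hadha, Hadhb, Hsd17b4 and Oxct1 were added after their values were seen. Of each other list, up to 2 genes of lowest p were named. FPKM values are printed to describe levels and were not tested, except the Cpt1b share. The fits were tested on simulated data with known 2-fold and 4-fold changes. There edgeR recovered 46% of the 2-fold and 93% of the 4-fold changes, with 10 false calls among 149. DESeq2 recovered 68% and 98%, with 36 false calls among 202. Smaller changes, as most of the 34 genes had, were not simulated. Results for some genes of the other lists are not reported here.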

Additional observations from a re-analysis of the deposited data

How the results depend on the processing

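No alternative called any of the 34 genes past the adjusted threshold. The number of genes called over the whole table depended on the tool: edgeR called 1 higher and 0 lower, DESeq2 83 higher and 307 lower, voom with quality weights 4 lower, and DESeq2 without CTR replicate 2, an alternative chosen after seeing the data, 35 higher and 158 lower. With each sample left out, edgeR called 1 to 2 higher and 0 to 2 lower.

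The median log2 fold change of the 34 genes ranged from 0.034 without Rb1 replicate 3 to 0.24 without Rb1 replicate 1. Leaving out samples in turn gave medians of 0.087 to 0.26 for the auxiliary enzymes, 0.018 to 0.10 for the peroxisomal genes and 0.19 to 0.30 for the ketone body enzymes. Among the other lists it gave 0.083 to 0.17 for peroxisomal enzymes, 0.16 to 0.39 for ketone genes, -0.31 to 0.19 for PPAR targets and -0.0083 to 0.11 for coactivators. The coactivator median was 0.019 with library totals and 0.11 with DESeq2 without CTR replicate 2.

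Genes of the 34 with an unadjusted p under 0.05 numbered 5 higher in DESeq2, and 1 to 8 higher and 0 to 1 lower with samples left out. Groups that did not overlap numbered 6 to 12 higher and 1 to 2 lower with samples left out, and 0 lower with library totals. Over all genes tested, such groups made up 7.75% higher and 9.75% lower with all samples, and 11.6% and 13.8% without CTR replicate 2. An unadjusted edgeR p under 0.05 was reached by 4.01% higher and 7.54% lower, and by 2.64% and 5.68% without that library. Non-overlap was thus commoner over all genes with that library left out. The shares for the other settings are not reported here.

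In 22 of 34 genes the sign of the log2 fold change was the same in all 13 settings, and in 12 it turned in at least 1. Library totals gave -0.019 for Acot13, -0.015 for Abcd3 and -0.042 for Acaa1a, voom gave 0.031 for Oxct1, and Acaa1a gave -0.067 in DESeq2 without CTR replicate 2 and -0.086 summed with Acaa1b. Leaving out samples gave -0.19 to 0.079 for Cpt1a, -0.059 to 0.27 for Cpt2, -0.054 to 0.16 for Crat, -0.10 to 0.15 for Acadl, -0.0017 to 0.26 for Echs1 and -0.010 to 0.14 for Decr1. It gave -0.021 to 0.14 for Etfdh, -0.11 to 0.16 for Acot13, -0.010 to 0.26 for Ppara, -0.035 to 0.10 for Abcd3, -0.069 to 0.051 for Acaa1a and -0.12 to 0.19 for Oxct1. The Cpt1b share, lower by 3.73 percentage points in Rb1 with all samples, differed by -6.16 to -0.01 points. Beyond fewer samples, the cause was not tested.

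Deviations of samples with the same number correlated at 0.136, -0.109 and 0.018, against -0.265 to 0.262 for samples with different numbers. These values show no pairing by number, and with 3 samples a group they cannot exclude one. With a replicate block edgeR called 1 gene higher and 0 lower, and 0 of the 34. The biological coefficient of variation was 24.8%, and 3 samples a group limit the precision.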

Other observations

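Vnn1, a pantetheinase and PPAR target named after its values were seen, had 40.1, 12.2 and 13.2 FPKM in Rb1 samples and 4.84, 10.5 and 12.1 FPKM in CTR samples. Its log2 fold change was 1.25 with all samples and 0.54 without Rb1 replicate 1. Prm1 and Tnp1, sperm chromatin genes, had 5.59 and 5.20 FPKM in Rb1 replicate 1, were at 0 in the other Rb1 samples, and reached at most 0.32 FPKM in CTR samples. The part of this in the values of that library was not tested.

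Of the other pathway lists, genes with the lowest unadjusted p in their list had the following log2 fold changes, none past the test in edgeR. Other members of these lists lay near or below 0. Hibch, of valine breakdown, had 0.44 (adjusted p = 0.292). Acad10, an acyl-CoA dehydrogenase family member, had 0.45 (adjusted p = 0.278). Pcca, the alpha subunit of propionyl-CoA carboxylase, had 0.38 (adjusted p = 0.427), and Mmut, the methylmalonyl-CoA mutase, had 0.33 (adjusted p = 0.445). Phyh, which starts the peroxisomal breakdown of phytanic acid, had 0.36 (adjusted p = 0.401). Among the coactivators, Nrip1, a corepressor of oxidative genes in fat, had 0.61 (adjusted p = 0.383) and Esrra, a nuclear receptor of mitochondrial genes, had -0.31 (adjusted p = 0.401).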
